A study of Mus musculus with 4 samples.

Results

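Mesenchymal fibroblast cells of the mouse pituitary gland were followed in 4 single-cell RNA-seq libraries, 2 from mice on a high-fat diet (HFD 1 and HFD 2) and 2 from mice on a control diet (CTRL 1 and CTRL 2). All mice were wild-type C57BL/6J males kept on their diet for 12 weeks, and the gland was dissociated with collagenase and trypsin before droplet capture with the 10x Genomics 3' assay, which counts unique molecular identifiers (UMIs) from polyadenylated RNA. The labels give neither the mice's age nor the number of pituitaries pooled per library, nor do they tie a library to its animals. The p-values below thus speak for library-to-library spread, part of which may be technical. The cells were selected on their own transcripts: a barcode was kept with at least 500 detected genes and at most 20% mitochondrial UMIs, and a kept barcode was a member when at least 4 of 8 genes (Col1a1, Col1a2, Dcn, Lum, Ogn, Col3a1, Col6a3 and Pdgfra) had a UMI and Gh, Prl and Pomc together gave under 10% of its UMIs. There were 506 members among 27220 kept barcodes, 98 of 8012 in HFD 1, 208 of 7361 in HFD 2, 55 of 4513 in CTRL 1 and 145 of 7334 in CTRL 2. The 8 genes of the rule are given below as descriptions, with no test.

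Fibroblasts build and repair the connective tissue of an organ. They secrete fibrillar collagens, which are trimmed and cross-linked outside the cell, together with proteoglycans such as decorin and lumican that space the fibrils, and basement membrane components that line vessels and cell groups. In the pituitary they lie in the capsule, along vessels and between the cords of hormone cells, and they are known as sources of growth factors, chemokines and retinoic acid signals to their neighbours.

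Some barcodes were shared between libraries. HFD 1 and HFD 2 shared 3116 barcodes, of which 3100 held in HFD 1 under 10% of the UMIs they held in HFD 2 (median 5.58%). HFD 1 and CTRL 2 shared 1423, with 1006 low in HFD 1 and 396 low in CTRL 2, whereas the other pairs shared 14 to 22. Among the members, 14 of the 98 in HFD 1 were such low copies of an HFD 2 barcode, and none lay in CTRL 2. Shares and counts of calls are also given without these copies.

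Members carried the markers of their label. Summed over members, the 5 marker genes Col1a1, Dcn, Lum, Ogn and Pdgfra reached 10624 and 12235 CPM (UMIs of a gene scaled to a common total of UMIs) in HFD 1 and HFD 2, and 6069 and 11563 CPM in CTRL 1 and CTRL 2, against 13.3 CPM in all other kept barcodes. CTRL 1 was the lowest of the 4 libraries and the other 3 lay close together. All 5 markers were detected, and Dcn, which encodes decorin, had a UMI in 98.8% of members. In barcodes rich in Gh, which should lack the gene, Dcn was seen in 1.21 and 1.97% in HFD 1 and HFD 2, against 3.09 and 2.12% in CTRL 1 and CTRL 2. Because members had to carry 4 of the 8 genes, these levels describe the choice.

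The genes that stood highest in members over all other barcodes were mostly of fibroblasts. Among genes detected in at least 50% of members, the 15 with the highest ratio of CPM were Pdgfra, Lum, Col1a1, Ccl19, Dcn, Mfap4, Foxd1, Dpep1, Inmt, Apod, Ogn, Cpxm1, Ptgis, Tcf21 and Col3a1. The ratio ran from 1096 for Pdgfra, the receptor for platelet-derived growth factor that marks mesenchymal cells, to 445 for Col3a1. Foxd1 and Tcf21, transcription factors of stromal progenitors in other organs, had ratios of 778 and 521. Ccl19, a chemokine of lymphoid stroma that shares its symbol with a second gene in the files, reached 555 CPM in members and 0.685 CPM elsewhere. Foxd1 varied little between libraries, with 251 and 262 CPM in the HFD libraries against 245 and 263 CPM in the CTRL libraries.

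The 56 members with exactly 4 rule genes had a median of 4436.5 UMIs, and the 74 low-hormone barcodes with 3 rule genes, just outside the rule, had 5709. With 5, 6, 7 and 8 rule genes there were 59, 95, 213 and 83 members. Another 33 barcodes carried at least 4 rule genes but gave 10% or more of their UMIs to the hormone genes. The median depth of members was 5184 and 7556.5 UMIs in HFD 1 and HFD 2, against 8192 and 7320 in CTRL 1 and CTRL 2. The summed members held 645123 and 2037229 UMIs in HFD 1 and HFD 2, against 901935 and 1366593 in CTRL 1 and CTRL 2. In CTRL 1 the 5 deepest barcodes alone gave 39.9% of the member UMIs, whereas in the other libraries they gave 12.3% to 19.1%.

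The share of members among kept barcodes overlapped between the diets. It was 1.22% in HFD 1 (exact 95% binomial interval 0.994 to 1.49%) and 2.83% in HFD 2 (2.46 to 3.23%), against 1.22% in CTRL 1 (0.919 to 1.58%) and 1.98% in CTRL 2 (1.67 to 2.32%). HFD 2 was highest, CTRL 2 came next, and HFD 1 and CTRL 1 could not be told apart. The mean was 2.02% ± 1.13 on the high-fat diet and 1.60% ± 0.536 on the control diet (SD, n = 2 each), a difference of 0.427 percentage points (exact permutation p = 0.667, two-sided, where 0.333 is the smallest p that 2 against 2 libraries can give). The 2 replicates of a diet differed by more than the means did. Without the shared low-UMI barcodes the shares were 1.36 and 2.83% in HFD 1 and HFD 2, against 1.22 and 2.00% in CTRL 1 and CTRL 2. A share in dissociated tissue also depends on how many cells of each kind survived digestion, which was not measured.

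**Figure D1:**
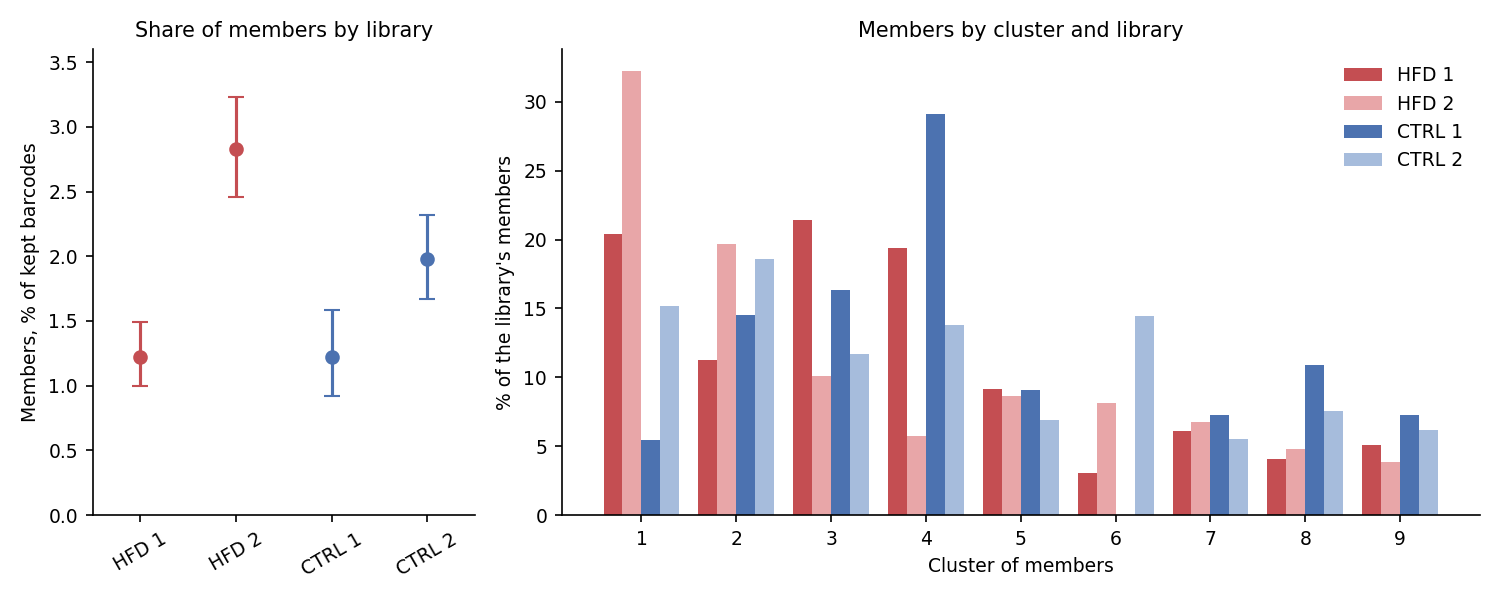
Left, members as a percentage of kept barcodes in each library, with exact 95% binomial intervals that cover counting error only. Right, the percentage of each library's members in each of 9 clusters. The 2 HFD libraries lie at 1.22 and 2.83% and the 2 CTRL libraries at 1.22 and 1.98%, and cluster 1 holds 20.4 and 32.2% of members in the HFD libraries against 5.45 and 15.2% in the CTRL libraries.

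Members were not uniform. Clustering of the 506 members on their own counts gave 9 groups, which are described here by the genes that lead each of them. Cluster 1 (112 members) was led by Spp1, which encodes osteopontin, the growth factor gene Ptn and the elastic fibre gene Fbln2. In it Spp1 reached 3240 CPM against 536 CPM in the other members, and the basement membrane collagen gene Col15a1 reached 554 CPM against 121 CPM. Cluster 2 (87 members) was led by weakly raised genes such as Socs3, an inhibitor of cytokine signalling, at 1489 CPM against 661 CPM in the other members.

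Cluster 3 (68 members) was led by the WNT modulator Sfrp4, at 970 CPM against 10.1 CPM in the other members, and by Ecrg4, the bicarbonate transporter gene Slc4a10, Igfbp6 and the retinol carrier gene Rbp4. Of 9 marker genes of arachnoid or dural border fibroblasts, 3 were at least 2 times the level of other members in this cluster. Cluster 4 (67 members) was led by the ribosomal RNA-related transcripts Gm42418 and AY036118 and by Lars2, and held the fewest UMIs of the 9 clusters (median 4772). Cluster 6 (41 members) was led by the chemokine genes Ccl2 and Cxcl1, the matrix protease gene Adamts4 and the metallothionein gene Mt1.

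The other 4 clusters carried markers of another cell class beside the fibroblast genes. Cluster 5 (42 members) showed 6 of 6 endothelial markers, cluster 7 (32) 7 of 7 hormone cell markers, cluster 8 (31) 6 of 6 macrophage markers with 5 of 6 pituitary stem cell markers, and cluster 9 (26) 6 of 6 pericyte markers. No doublets were removed beyond the limit on hormone transcripts. These 131 members were deep, with medians of 16450, 16131.5 and 27007 UMIs in clusters 5, 7 and 8, although cluster 9 had 6168. They were 24.5 and 24% of members in HFD 1 and HFD 2, against 34.5 and 26.2% in CTRL 1 and CTRL 2, and they gave 41.8 and 45.1% of member UMIs in HFD 1 and HFD 2, against 66.9 and 47.3% in CTRL 1 and CTRL 2. CTRL 1 thus held the largest part of its fibroblast UMIs in barcodes that also carried another class. Values are therefore also given for the 375 members of the 5 remaining clusters, called the unmixed clusters below, a split chosen after the clusters were seen and used with no test. The name applies to clusters, and single barcodes in them can still carry other transcripts, such as Hbb-bs at 4165 CPM in HFD 2. A limit by barcode on endothelial, macrophage and mural markers, used below, kept fewer members. It kept 68 and 145 in HFD 1 and HFD 2, against 30 and 99 in CTRL 1 and CTRL 2. In the unmixed clusters the median log2 ratio was -0.006 over 8156 genes with at least 10 CPM in each diet.

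**Figure D2:**
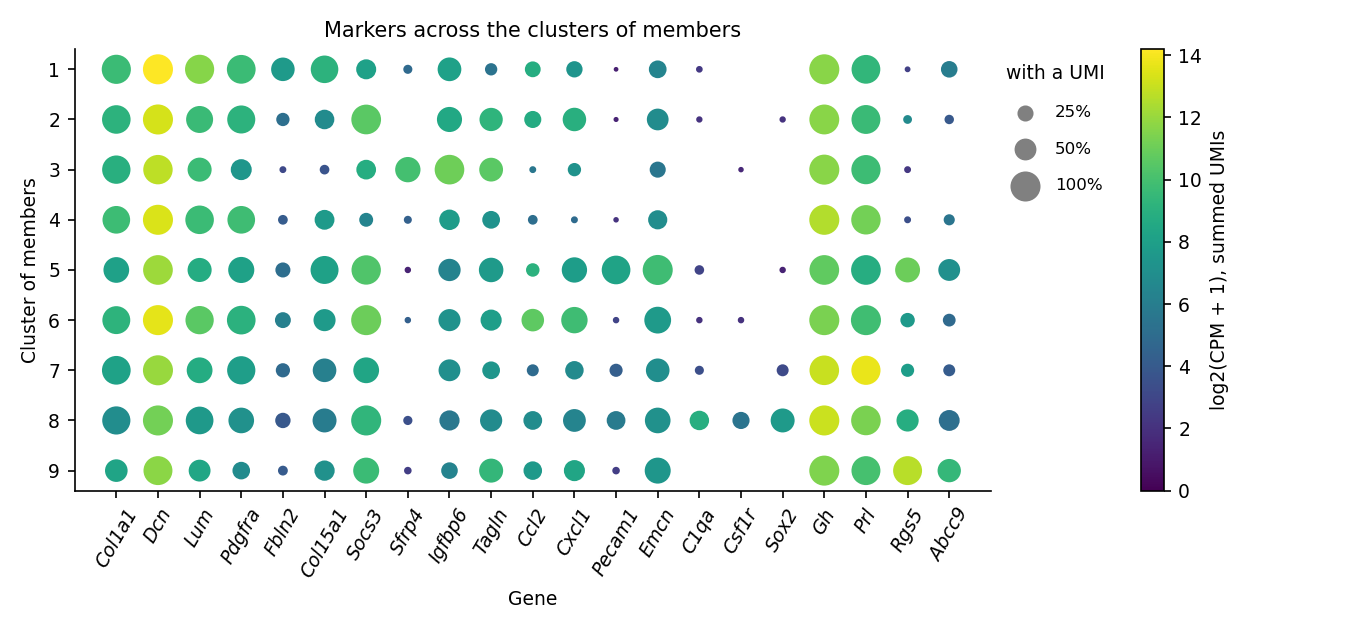
Marker genes (columns) in the 9 clusters of members (rows), with colour for log2(CPM + 1) of the summed UMIs and dot area for the percentage of the cluster's members with a UMI. Dcn is high in every row, Sfrp4 and Igfbp6 stand out in cluster 3, Ccl2 and Cxcl1 in cluster 6, and the endothelial, macrophage, hormone and pericyte genes in clusters 5, 8, 7 and 9.

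Cluster make-up differed between libraries in a way that the diet labels did not follow alone. Cluster 1 held 20 and 67 members in HFD 1 and HFD 2 against 3 and 22 in CTRL 1 and CTRL 2. Cluster 6 held 3 and 17 in HFD 1 and HFD 2 against 0 and 21 in CTRL 1 and CTRL 2, so it was nearly absent from both libraries numbered 1. Its leading gene Ccl2 followed the same split, with 54.3 and 322 CPM in the HFD libraries against 18.8 and 681 CPM in the CTRL libraries. No test was made of these cluster counts, because the clusters were built on the same genes.

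Between the diets, no gene passed the test in members. With edgeR's quasi-likelihood test and Benjamini-Hochberg adjustment, 0 of 10061 tested genes (0%) had an adjusted p under 0.05. At an unadjusted p under 0.05 there were 233 genes higher (2.32%) and 229 lower (2.28%) on the high-fat diet, 462 in all. Leaving out CTRL 2 gave 176 calls, leaving out HFD 1 gave 4, leaving out HFD 2 gave 7 and leaving out CTRL 1 gave 0. DESeq2 called 7 genes, all higher (0.0696%), namely Fabp4, Hbb-bt, Hbb-bs, Hba-a1, Hba-a2, Ccl4 and AW112010. By level alone, both HFD libraries lay above both CTRL libraries for 17.2% of tested genes and below them for 17.6%. Differences below are thus given as sizes with their errors, and none is a call unless that is said. In bulk sums of this kind, fewer cells of a type and less RNA per cell cannot be told apart, and since counts are scaled to a total, less of one transcript and more of the others cannot be told apart.

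Several of the 10 genes with the smallest p came from few barcodes or from another cell class. Ccl4, a chemokine of macrophages, had 191 and 141 CPM in HFD 1 and HFD 2, against 27.7 and 21.2 CPM in CTRL 1 and CTRL 2 (log2 difference 2.77 ± 0.24 (SE), edgeR adjusted p = 0.0637), but 56 of its 123 UMIs in HFD 1 and 185 of its 287 in HFD 2 lay in 1 member each, and almost none lay in the unmixed clusters. Fcrls, a macrophage gene, was seen in 4 members of the HFD libraries and had no UMI in CTRL members, so it was at least 9.87-fold higher in HFD members against a floor of 3 UMIs over the diet. Esm1, a gene that was highest in Pomc-rich barcodes, had 26.4 and 27 CPM in HFD 1 and HFD 2, against 4.43 and 5.12 CPM in CTRL 1 and CTRL 2, 71.4% or more of it in each library in clusters 5, 7, 8 and 9. Hbb-bs, a beta-globin chain, had 599.9 and 2303 CPM in HFD 1 and HFD 2, against 53.2 and 28.5 CPM in CTRL 1 and CTRL 2. The hemoglobin genes Hbb-bs, Hbb-bt, Hba-a1 and Hba-a2 were high in both HFD libraries, but 4033 of the 4691 Hbb-bs UMIs in HFD 2 and 206 of the 387 in HFD 1 were in 1 member each. Near-identical hemoglobin copies share reads, and the part of red blood cell RNA in these values was not tested.

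Col15a1 was the matrix gene with the smallest p and was spread over many members. It lies at chr4:47208161-47313167 (mm10) and encodes collagen XV, which ties collagen fibrils to the basement membrane. It had 296 and 238 CPM in HFD 1 and HFD 2, against 108 and 107 CPM in CTRL 1 and CTRL 2, and was detected in 52 and 133 members of HFD 1 and HFD 2, against 27 and 53 of CTRL 1 and CTRL 2. Both HFD libraries lay more than 2 times above both CTRL libraries, which were almost equal (log2 difference 1.32 ± 0.19 (SE), edgeR adjusted p = 0.22). In the unmixed clusters it had 378 and 303 CPM in HFD 1 and HFD 2, against 121 and 132 CPM in CTRL 1 and CTRL 2, and no member held more than 28 of its UMIs.

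Endothelial barcodes had Col15a1 at 201 and 222 CPM in HFD 1 and HFD 2 against 192 and 200 CPM in CTRL 1 and CTRL 2. Among the unmixed clusters the gene was highest in cluster 1, whose share was larger in the HFD libraries, and within cluster 1 it had 1002 and 487 CPM in HFD 1 and HFD 2, against 593 and 411 CPM in CTRL 1 and CTRL 2, where CTRL 1 had only 3 members. In cluster 2 it had 156 and 138 CPM in HFD 1 and HFD 2, against 79.3 and 63.3 CPM in CTRL 1 and CTRL 2. Set against all other kept barcodes of the same libraries, its diet difference was larger in members by a log2 difference of differences of 1.18 ± 0.21 (SE), edgeR adjusted p = 1.03e-05. With DESeq2 that adjusted p was 0.304, without CTRL 1 it was 0.0503, in members with few markers of another class it was 0.182, and with every barcode given 1000 UMIs it was 0.108.

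Ly6a separated the diets once clusters of mixed class were set aside. The gene lies at chr15:74994877-74998031 (mm10) and encodes Sca-1, a surface protein of adventitial fibroblasts, endothelium and progenitors that interferon is known to induce. Over all members it had 265 and 169 CPM in HFD 1 and HFD 2, against 182 and 65.9 CPM in CTRL 1 and CTRL 2, and HFD 2 lay below CTRL 1 (log2 difference 0.83 ± 0.42 (SE), edgeR adjusted p = 0.969). In the unmixed clusters it had 154 and 130.5 CPM in HFD 1 and HFD 2, against 3.35 and 6.94 CPM in CTRL 1 and CTRL 2. It was detected there in 10 of 74 and 30 of 158 members of HFD 1 and HFD 2, against 1 of 36 and 4 of 107 members of CTRL 1 and CTRL 2. Of its UMIs, 66.1% in HFD 1 and 57.6% in HFD 2 lay in clusters 5, 7, 8 and 9, against 99.4% in CTRL 1 and 94.4% in CTRL 2.

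A fit on members that carried fewer than 2 markers of each of the endothelial, macrophage and mural lists called the Ly6a difference. These members had 109 and 131 CPM in HFD 1 and HFD 2, against 4.09 and 16 CPM in CTRL 1 and CTRL 2, resting on 37 and 149 UMIs in the HFD libraries and 1 and 12 UMIs in the CTRL libraries (log2 difference 3.24 ± 0.39 (SE), edgeR adjusted p = 0.032 over 7244 genes tested). Both HFD libraries lay far above both CTRL libraries. AW112010, a transcript known from immune cells and induced by interferon, was the only other gene called in that fit, with 124 and 104 CPM in HFD 1 and HFD 2, against 20.5 and 18.7 CPM in CTRL 1 and CTRL 2 (log2 difference 2.52 ± 0.31 (SE), edgeR adjusted p = 0.032). That fit is 1 of the alternative settings, and over all members AW112010 had 130.2 and 87.4 CPM in HFD 1 and HFD 2, against 27.7 and 32.9 CPM in CTRL 1 and CTRL 2 (log2 difference 1.79 ± 0.26 (SE), edgeR adjusted p = 0.249). Over all settings the edgeR or DESeq2 adjusted p of Ly6a ranged from 0.032 to 1, and with every barcode given 1000 UMIs its log2 difference was 1.23.

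Within the unmixed clusters most Ly6a UMIs of the HFD libraries lay in cluster 1. There it was seen in 4 of 20 and 26 of 67 members of HFD 1 and HFD 2, against 1 of 3 and 1 of 22 members of CTRL 1 and CTRL 2, at 413 and 303 CPM in HFD 1 and HFD 2, against 49.4 and 13.9 CPM in CTRL 1 and CTRL 2. The CTRL values rest on 1 and 2 UMIs. In barcodes rich in Gh, Ly6a had a UMI in 1.75 and 1.74% in HFD 1 and HFD 2, against 4.39 and 1.75% in CTRL 1 and CTRL 2. The share of members with a UMI at 1000 UMIs each was 11.5 and 11.6% in HFD 1 and HFD 2, against 5.45 and 0% in CTRL 1 and CTRL 2. Unthinned, it was 21.4 and 26.4% in HFD 1 and HFD 2, against 25.5 and 17.2% in CTRL 1 and CTRL 2, so the order of the libraries depended on the depth at which barcodes were compared.

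Genes of the interferon response and MHC class I held the most genes of any list at an unadjusted p under 0.05. Interferons signal from surface receptors to a set of antiviral genes and to the machinery that presents peptides on MHC class I. All 24 genes of the list were tested and 21 had a positive difference, with a median log2 difference of 0.51 against -0.002 over all tested genes. Both HFD libraries lay above both CTRL libraries for 15 of 24 genes, beside 17.2% of all tested genes, and 11 of 24 had an unadjusted p under 0.05, all higher, beside 2.32% of all tested genes. None passed adjustment. They included Stat2, Ifitm3, Bst2, Ifi35, Psmb8, Psmb9, B2m, H2-D1, H2-T23 and Tap2.

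H2-D1, a classical MHC class I heavy chain, showed the pattern at high level. It had 1113 and 1024 CPM in HFD 1 and HFD 2, against 685 and 697 CPM in CTRL 1 and CTRL 2 (log2 difference 0.64 ± 0.18 (SE), edgeR adjusted p = 0.969), so that both HFD libraries lay above both CTRL libraries. B2m, the light chain of the same complex, had 828 and 628 CPM in HFD 1 and HFD 2, against 540.0 and 461 CPM in CTRL 1 and CTRL 2 (log2 difference 0.55 ± 0.21 (SE), edgeR adjusted p = 0.969). Ifitm3, an antiviral membrane protein, had 1886 and 1518 CPM in HFD 1 and HFD 2, against 1161 and 1248 CPM in CTRL 1 and CTRL 2, a log2 difference of 0.51. H2-K1 had 792 and 671 CPM in the HFD libraries against 609 and 478 CPM in the CTRL libraries and Ifitm2 791 and 805 CPM in the HFD libraries against 509 and 709 CPM in the CTRL libraries, without reaching an unadjusted p of 0.05. Isg15, an induced ubiquitin-like protein, differed from these with 245 and 181 CPM in the HFD libraries against 104 and 268 CPM in the CTRL libraries, CTRL 2 being the highest library.

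H2-D1 separated the diets in some clusters and not in others. In cluster 1 it had 1257 and 1350.3 CPM in the HFD libraries against 593 and 718 CPM in the CTRL libraries, in cluster 2 976 and 1173 CPM in the HFD libraries against 555 and 608 CPM in the CTRL libraries, in cluster 3 700.2 and 449 CPM in the HFD libraries against 286 and 446 CPM in the CTRL libraries and in cluster 4 830.1 and 913 CPM in the HFD libraries against 553 and 483 CPM in the CTRL libraries. Both HFD libraries lay above both CTRL libraries in each of these 4 clusters, by the least margin in cluster 3. In cluster 6, where CTRL 1 had no member, the gene had 743 and 1043 CPM in HFD 1 and HFD 2, against 821 CPM in CTRL 2, so the diets overlapped. Among the mixed clusters the diets also overlapped in cluster 5, with 1958 and 1515 CPM in the HFD libraries against 1629 and 1247 CPM in the CTRL libraries, and in cluster 7, with 264 and 409 CPM in the HFD libraries against 409 and 398 CPM in the CTRL libraries. Both HFD libraries lay above both CTRL libraries in cluster 8, with 1065 and 843 CPM in the HFD libraries against 821 and 746 CPM in the CTRL libraries, and in cluster 9, with 875 and 798 CPM in the HFD libraries against 370.0 and 789 CPM in the CTRL libraries. B2m separated the diets in clusters 1 and 2 but not in clusters 3 and 4. In cluster 3 B2m had 463 and 334 CPM in the HFD libraries against 378 and 322 CPM in the CTRL libraries. In cluster 4 it had 363 and 488 CPM in the HFD libraries against 447 and 582 CPM in the CTRL libraries. Across the list, the median log2 ratio in the unmixed clusters was 0.69 over 23 genes with at least 10 CPM in each diet. With every barcode given 1000 UMIs the median was 0.17 and Bst2 had a log2 difference of -0.07, and with barcodes thinned before the rule the median was 0.10. Leaving out 1 library at a time gave medians from 0.36 (without HFD 1) to 0.68 (without CTRL 2). Set against endothelial barcodes, which also express these genes, the list's diet difference was larger in members by a median of 0.47, and 0 of its genes passed that test. Against all other kept barcodes the median was 0.35, and 0 of its genes passed. Macrophage marker transcripts in members summed to 862 and 281 CPM in HFD 1 and HFD 2, against 473 and 220 CPM in CTRL 1 and CTRL 2, and their part in the list's values was not tested.

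Promoters of these genes are shown because the list shares a known response element. The core of the interferon-stimulated response element, GAAA followed after any 2 bases by a second GAAA, was searched on both strands, overlaps allowed, in windows from 250 bases before to 50 bases after the start (RefSeq, GRCm38.p6). Of the 24 list genes 21 had a window, and 10 of these 21 (47.6%) held a match, against 1079 of 27025 genes (3.99%) in the whole table and 3.8% of the 7993 tested genes with a window. The list was assembled from known interferon targets, so this describes the list and not the diet. The 4 list genes of highest level in members with a match before the start are printed over 60 bases, 5′ to 3′ on the gene's strand, with each match in capitals.
Ifitm2: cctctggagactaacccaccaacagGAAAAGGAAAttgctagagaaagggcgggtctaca
B2m: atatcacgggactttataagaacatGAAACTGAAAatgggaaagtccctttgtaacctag
Bst2: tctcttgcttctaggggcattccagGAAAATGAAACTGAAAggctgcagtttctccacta
Isg15: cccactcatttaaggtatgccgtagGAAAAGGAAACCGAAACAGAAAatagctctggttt
Ifitm2 lies on the minus strand at chr7:140955973-140956032, B2m on the plus strand at chr2:122147523-122147582, Bst2 on the minus strand at chr8:71537568-71537627 and Isg15 on the minus strand at chr4:156200862-156200921. The 60 bases span positions -71 to -12, -164 to -105, -155 to -96 and -103 to -44 from the start, in that order. Bst2, which tethers budding viruses, held 2 overlapping matches and 448 and 247 CPM in the HFD libraries against 211 and 194 CPM in the CTRL libraries. Isg15 held 3 overlapping matches, the most of the 4, and showed the smallest diet difference of the 4 (log2 0.16).

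Collagen and other matrix genes leaned to the higher side in HFD members. Of 14 basement membrane genes 13 had a positive difference, with a median log2 difference of 0.38. Of 8 tested fibrillar collagen genes 6 were positive (median 0.57), but 3 of these chose the members, and of the 5 that did not, 3 were positive (median 0.54). Of 19 elastic and matricellular genes 14 were positive, 9 had both HFD libraries above both CTRL libraries, and 7 had an unadjusted p under 0.05, all higher (Fbln1, Fbln2, Mfap4, Mfap5, Efemp1, Emilin1 and Sparc). None of the genes in these 3 lists passed adjustment. Of all 10061 tested genes 5002 were positive. Both HFD libraries lay above both CTRL libraries for 17.2% of tested genes, and 2.32% were higher at an unadjusted p under 0.05. Of the rule genes, whose values are given without a test, Col1a1 had 626 and 510.0 CPM in the HFD libraries against 302 and 342 CPM in the CTRL libraries and Col1a2 967 and 892 CPM in the HFD libraries against 588 and 638 CPM in the CTRL libraries. Col3a1 had 513 and 326 CPM in the HFD libraries against 285 and 319 CPM in the CTRL libraries, and Ogn, osteoglycin, 1115 and 1005 CPM in the HFD libraries against 904 and 967 CPM in the CTRL libraries. Dcn had 7239 and 9197 CPM in the HFD libraries against 4246 and 8816 CPM in the CTRL libraries, and Lum, lumican, 1203 and 1064 CPM in the HFD libraries against 341 and 1073 CPM in the CTRL libraries. Col6a3, a collagen VI chain, had 49.6 and 46.6 CPM in the HFD libraries against 24.4 and 23.4 CPM in the CTRL libraries, and Pdgfra 442 and 458 CPM in the HFD libraries against 276 and 365 CPM in the CTRL libraries.

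The medians of the fibrillar and the elastic lists were smaller when mixed clusters were set aside. In the unmixed clusters the median log2 ratio was 0.36 over the 5 fibrillar collagen genes outside the rule, 0.39 over 14 basement membrane genes and 0.18 over 18 elastic and matricellular genes. There Col1a1 had 884 and 705 CPM in the HFD libraries against 627 and 479 CPM in the CTRL libraries and Ogn 1526 and 1407 CPM in the HFD libraries against 2008 and 1463 CPM in the CTRL libraries, with CTRL 1 the highest library for Ogn. With every barcode given 1000 UMIs, the median of the elastic and matricellular list was 0.07 and that of the basement membrane list -0.02. Leaving out 1 library at a time gave medians of 0.20 to 0.60 for the basement membrane list and 0.23 to 0.75 for the elastic and matricellular list. The fibrillar list had 0.61 at 1000 UMIs and 0.39 to 0.83 with 1 library left out. Those fibrillar values include Col1a1, Col1a2 and Col3a1, which chose the members, so they describe the choice in part. Values without these genes were not computed for these settings. The share of member UMIs in clusters of mixed class was highest in CTRL 1, and its part in these lists was not tested beyond those values.

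Fbln1, which encodes fibulin-1 of elastic fibres and basement membranes, had 265 and 186 CPM in HFD 1 and HFD 2, against 98.7 and 84.9 CPM in CTRL 1 and CTRL 2 (log2 difference 1.29 ± 0.22 (SE), edgeR adjusted p = 0.443). Both HFD libraries lay above both CTRL libraries, and they also did in the unmixed clusters, with 362 and 258 CPM in the HFD libraries against 188 and 126 CPM in the CTRL libraries. Serpinh1, the chaperone HSP47 that folds procollagen, had 603 and 566 CPM in HFD 1 and HFD 2, against 285 and 346 CPM in CTRL 1 and CTRL 2 (log2 difference 0.89 ± 0.20 (SE), edgeR adjusted p = 0.766), and its HFD values were above its CTRL values in the unmixed clusters too, with 756 and 715 CPM in the HFD libraries against 459 and 412 CPM in the CTRL libraries. Mmp2, a gelatinase, had 129 and 117 CPM in the HFD libraries against 35.5 and 68.1 CPM in the CTRL libraries, and Adamts2, which trims procollagen, 72.9 and 41.2 CPM in the HFD libraries against 24.4 and 24.1 CPM in the CTRL libraries. Mfap4, a microfibril protein, had 449.5 and 444 CPM in the HFD libraries against 206 and 284 CPM in the CTRL libraries, and Sparc, a collagen-binding matricellular protein, 1829 and 1643 CPM in the HFD libraries against 1122 and 1320.1 CPM in the CTRL libraries. Col5a2, Col4a1 and Lama2 had log2 differences of -0.12, 0.08 and 0.13, each within 1 SE of 0, with HFD and CTRL values interleaved.

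Other matrix genes did not pass the test either. Nid1, Hspg2 and Col4a5, which link or build basement membranes, had log2 differences of 0.66, 0.59 and 0.82. Col12a1 and Col5a1, which regulate fibril assembly, had log2 differences of 0.75 and 0.69, whereas Col6a1 had 0.22. Of 18 collagen folding and cross-linking genes 14 were positive (median 0.18, and 0.10 in the unmixed clusters), with log2 differences of 0.51 for Loxl1 and 0.26 for Ppib. Of 16 matrix proteases and inhibitors 12 were positive (median 0.26, and 0.12 in the unmixed clusters), with log2 differences of 0.88 for Serpinf1, 0.50 for Timp2 and 0.22 for Timp3. The proteoglycan list had 9 of 13 positive (median 0.19), of which Dcn, Lum and Ogn chose the members. Without them 6 of 10 were positive (median 0.12), and in the unmixed clusters 3 of 8 (median -0.16). The list's only gene with an unadjusted p under 0.05 was lower: Gpc3, a heparan sulfate proteoglycan of the cell surface, with 285 and 332 CPM in HFD 1 and HFD 2, against 429 and 437 CPM in CTRL 1 and CTRL 2 (log2 difference -0.47 ± 0.18 (SE), edgeR adjusted p = 0.969). In the unmixed clusters Gpc3 had 434 and 475 CPM in the HFD libraries against 1019 and 687 CPM in the CTRL libraries, and it was lower in both HFD libraries there as well. By cluster, it was lower in both HFD libraries in clusters 2 and 3. The diets overlapped in cluster 1, with 61.5 and 223 CPM in the HFD libraries against 395 and 119 CPM in the CTRL libraries. They also overlapped in cluster 4, with 623 and 297 CPM in the HFD libraries against 500 and 900 CPM in the CTRL libraries.

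**Figure D3:**
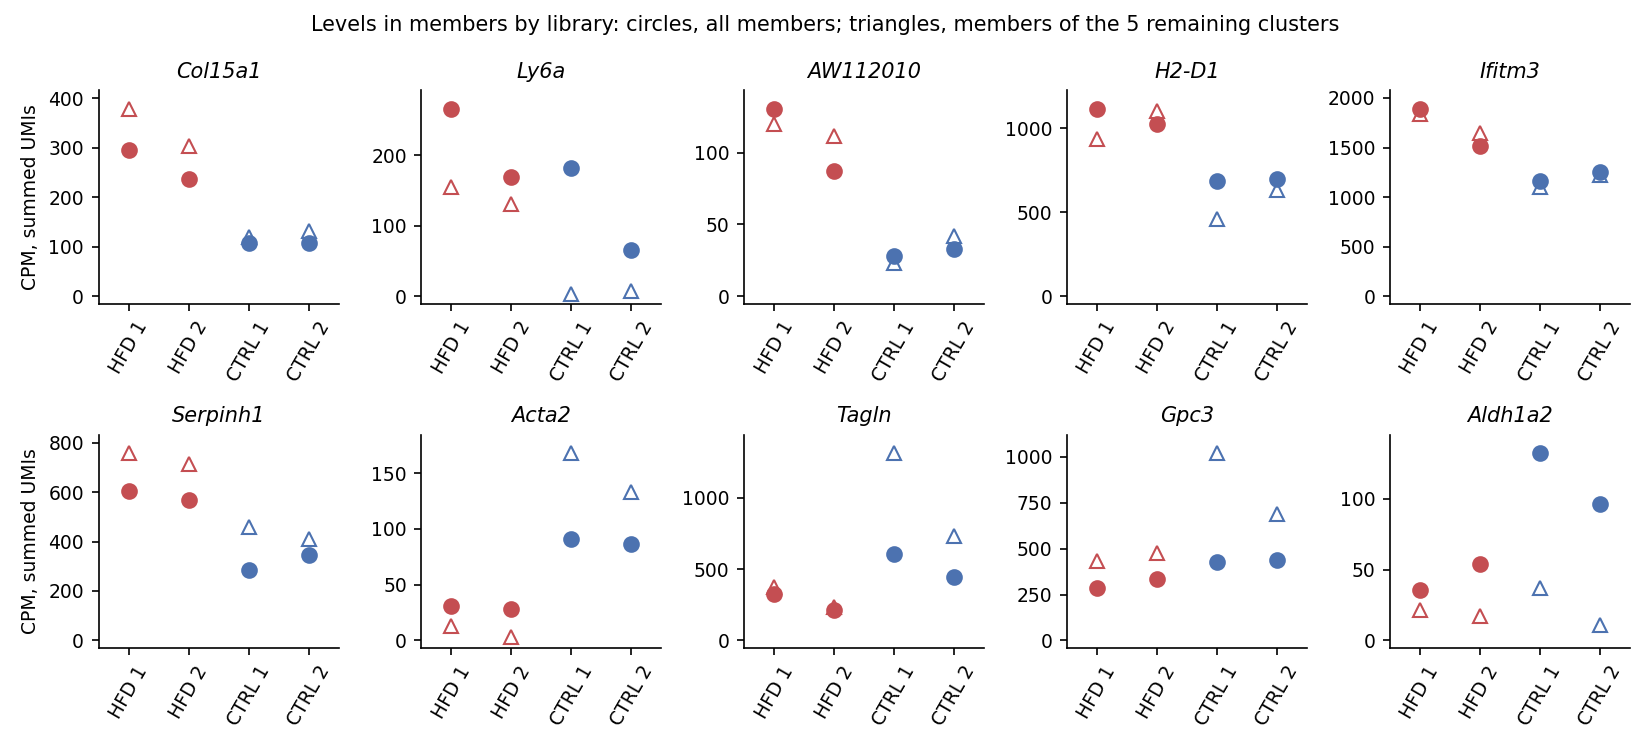
CPM of 10 genes in the summed members of each library, as circles for all members and triangles for the 375 members of the 5 clusters with no leading markers of another class. Col15a1 lies at 296 and 238 CPM in the HFD libraries against 108 and 107 CPM in the CTRL libraries, the Ly6a triangles separate the diets more than its circles do, and Acta2, Tagln and Gpc3 are lower in both HFD libraries.

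Contractile genes leaned to the lower side in HFD members. Of 11 tested genes 9 had a negative difference, with a median log2 difference of -0.41, which was -0.57 over 9 genes in the unmixed clusters and -0.11 without CTRL 2. Acta2, smooth muscle actin and a marker of myofibroblasts and mural cells, had 31 and 28 CPM in HFD 1 and HFD 2, against 90.9 and 86.3 CPM in CTRL 1 and CTRL 2 (log2 difference -1.59 ± 0.20 (SE), edgeR adjusted p = 0.167), and both HFD libraries lay well below both CTRL libraries. Its UMIs came from few members, 5 and 7 in HFD 1 and HFD 2 against 8 and 14 in CTRL 1 and CTRL 2. The highest member held 10 of 20 and 30 of 57 UMIs in HFD 1 and HFD 2, against 26 of 82 and 38 of 118 in CTRL 1 and CTRL 2. With at least 3 rule genes in place of 4, the log2 difference was 0.10. Tagln, an actin-binding protein of the same cells, was broader, in 31 and 82 members of HFD 1 and HFD 2 against 30 and 72 of CTRL 1 and CTRL 2, and had 322 and 211 CPM in HFD 1 and HFD 2, against 606 and 448 CPM in CTRL 1 and CTRL 2 (log2 difference -0.98 ± 0.25 (SE), edgeR adjusted p = 0.969).

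The clusters that held Tagln and Acta2 differed between libraries. Cluster 3 held 95 of 208 and 80 of 429 Tagln UMIs in HFD 1 and HFD 2, against 282 of 547 and 325 of 612 in CTRL 1 and CTRL 2. There Tagln had 978 and 438 CPM in HFD 1 and HFD 2, against 2602 and 2685 CPM in CTRL 1 and CTRL 2, in 9 of 21 and 12 of 21 members of HFD 1 and HFD 2 against 8 of 9 and 12 of 17 members of CTRL 1 and CTRL 2. In cluster 2, which held more Tagln UMIs of HFD 2 than cluster 3 did, Tagln had 234 and 467 CPM in HFD 1 and HFD 2, against 1347 and 638 CPM in CTRL 1 and CTRL 2. In cluster 9, which carries pericyte markers, the order was the opposite, with 810.0 and 1645 CPM in HFD 1 and HFD 2, against 432 and 312 CPM in CTRL 1 and CTRL 2. Acta2 in cluster 3 had 5 of its 20 UMIs in HFD 1 and 0 of 57 in HFD 2, against 35 of 82 in CTRL 1 and 80 of 118 in CTRL 2. Clusters of mixed class held 75% and 94.7% of the Acta2 UMIs in HFD 1 and HFD 2, against 39% and 18.6% in CTRL 1 and CTRL 2. Tpm1, tropomyosin, had 398 and 470.2 CPM in the HFD libraries against 629.8 and 583 CPM in the CTRL libraries over all members, and Cald1, caldesmon, 645 and 598 CPM in the HFD libraries against 572 and 786 CPM in the CTRL libraries. Pericyte marker transcripts in members summed to 639 and 737 CPM in HFD 1 and HFD 2, against 812 and 1297 CPM in CTRL 1 and CTRL 2. Their part in the contractile values over all members was not tested.

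Among genes of fibroblast identity, Tcf21 and 4 of 10 adventitial genes were higher at an unadjusted p under 0.05. For the transcription factors that is 1 of 28 (3.57%), near the 2.32% of all tested genes that were higher at this limit. Of 28 fibroblast transcription factors 20 were positive (median log2 difference 0.17), and in the unmixed clusters 8 of 23 (median -0.09). Tcf21 had 143 and 214 CPM in the HFD libraries against 94.2 and 134 CPM in the CTRL libraries (log2 difference 0.66), and Tcf4 a log2 difference of 0.36. In the adventitial list these 4 genes were Pi16, Ly6c1, Clec3b and Gsn. The list had a median of 0.73 over 10 genes in all members, 0.07 over 7 genes in the unmixed clusters and 0.28 without CTRL 2. Ly6c1 had no UMI in the unmixed clusters, and Pi16, a marker of vessel-associated progenitor fibroblasts, had 74.6 and 90.3 CPM in the HFD libraries against 101 and 56.9 CPM in the CTRL libraries there. Gsn, the actin-severing gelsolin, had 2347 and 4065 CPM in HFD 1 and HFD 2, against 1121 and 1905 CPM in CTRL 1 and CTRL 2 (log2 difference 1.09 ± 0.36 (SE), edgeR adjusted p = 0.969).

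Growth factor systems gave a mixed account. Of 12 IGF system genes 10 were positive with a median of 0.54. In the unmixed clusters the median was 0.18, with 7 of 11 positive, and with every barcode given 1000 UMIs it was 0.15. Igfbp5, which binds insulin-like growth factors in the matrix, had 5197 and 3976 CPM in HFD 1 and HFD 2, against 2895 and 2438 CPM in CTRL 1 and CTRL 2 (log2 difference 0.79 ± 0.22 (SE), edgeR adjusted p = 0.969). It was higher in both HFD libraries in the unmixed clusters as well, with 6423 and 4721 CPM in the HFD libraries against 3530.2 and 2509 CPM in the CTRL libraries. The log2 difference was 0.66 for Igfbp4, 0.58 for Htra1, a protease of these binding proteins, and 0.05 for Igfbp7. In the TGF-beta list, with 10 of 17 genes positive (median 0.08, and -0.09 in the unmixed clusters), Ltbp1, which stores latent TGF-beta in the matrix, had a log2 difference of 0.59, the target gene Tgfbi 0.87 and Ltbp4 0.08. The BMP, WNT and FGF list had 12 of 19 positive (median 0.19, and -0.06 in the unmixed clusters), with the receptor gene Fgfr1 at a log2 difference of 0.55. The PDGF and VEGF list without the rule gene Pdgfra had 8 of 14 positive (median 0.07, and -0.09 in the unmixed clusters), with the vessel-stabilising ligand gene Angpt1 lower, at 60.5 and 60.9 CPM in the HFD libraries against 87.6 and 87.1 CPM in the CTRL libraries.

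Retinoid genes had differences of both signs, 5 of 10 positive (median 0.13 in all members and in the unmixed clusters). Aldh1a2, the main enzyme of retinoic acid synthesis in mesenchyme, had 35.7 and 54 CPM in HFD 1 and HFD 2, against 132 and 96.6 CPM in CTRL 1 and CTRL 2 (log2 difference -1.26 ± 0.26 (SE), edgeR adjusted p = 0.725), but 65.2% or more of its UMIs in each library lay in clusters 5, 7, 8 and 9. In CTRL 1, 80 of its 119 UMIs were in 1 member. Cyp26b1, which degrades retinoic acid, had 60.5 and 38.3 CPM in the HFD libraries against 11.1 and 30.0 CPM in the CTRL libraries, almost none of it in the unmixed clusters. Aldh1a1, another retinaldehyde dehydrogenase, had 72.9 and 117 CPM in the HFD libraries against 51 and 78.3 CPM in the CTRL libraries, and Rarb, a retinoic acid receptor, 97.7 and 70.7 CPM in the HFD libraries against 61 and 53.4 CPM in the CTRL libraries. Rbp4, a leading gene of cluster 3, had 102 and 203 CPM in the HFD libraries against 306 and 205 CPM in the CTRL libraries, CTRL 1 being the highest library.

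Chemokine and cytokine genes depended on the libraries used. Of 16 tested genes 9 were positive (median 0.23, and 0.35 in the unmixed clusters), and the median was 1.59 without CTRL 2, -0.14 without CTRL 1 and -0.21 without HFD 2. Cxcl16 had 141 and 149.7 CPM in HFD 1 and HFD 2, against 72.1 and 84.2 CPM in CTRL 1 and CTRL 2 (log2 difference 0.90 ± 0.19 (SE), edgeR adjusted p = 0.732), and the macrophage growth factor Csf1 63.6 and 45.2 CPM in the HFD libraries against 32.2 and 27.8 CPM in the CTRL libraries. Il33, an alarmin of stromal cells, had 512 and 495 CPM in the HFD libraries against 165 and 411 CPM in the CTRL libraries and Cxcl12, a chemokine of stromal niches, 591 and 454 CPM in the HFD libraries against 371 and 432 CPM in the CTRL libraries. Cxcl14 had 7.75 and 29.5 CPM in the HFD libraries against 82 and 33.7 CPM in the CTRL libraries, and 64 of its 74 UMIs in CTRL 1 were in 1 member. Of 8 complement genes 7 were positive (median 0.42, 0.24 in the unmixed clusters and 0.11 without HFD 2), with C7 at 35.7 and 54 CPM in the HFD libraries against 15.5 and 16.8 CPM in the CTRL libraries and C1ra at 107 and 106 CPM in the HFD libraries against 71 and 76.1 CPM in the CTRL libraries, while Cd59a had 27.9 and 22.6 CPM in the HFD libraries against 54.3 and 39.5 CPM in the CTRL libraries.

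Immediate-early genes, which switch on within minutes of dissociation or other stimuli, split by library number for Fos and Junb. Fos had 2914 and 5508 CPM in HFD 1 and HFD 2, against 2609.9 and 5382 CPM in CTRL 1 and CTRL 2, and Junb 2189 and 3496 CPM in HFD 1 and HFD 2, against 2108 and 3969 CPM in CTRL 1 and CTRL 2. For both genes HFD 2 and CTRL 2 were high and HFD 1 and CTRL 1 low, so the diets overlapped fully. Of 26 tested genes 9 were positive and the median log2 difference was -0.23. In all, 5 of 26 genes (19.2%) were lower at an unadjusted p under 0.05, beside 2.28% of all tested genes. These were Egr3, Atf3, Nr4a2, Nr4a3 and Maff, with log2 differences of -1.17, -0.66, -1.30, -1.55 and -1.33. Both HFD libraries lay below both CTRL libraries for 7 of 26 genes, beside 17.6% of all tested genes. Over the unmixed clusters the median of the list was -0.02. Without CTRL 2 the median of the list was 0.19, without HFD 1 it was 0.13 and without HFD 2 it was -0.84.

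Of 19 genes of the adipocyte programme 15 were positive (median 0.25, 0.24 in the unmixed clusters and 0.07 without CTRL 1), but Fabp4, a lipid carrier of endothelium and adipocytes with 178 and 331 UMIs in HFD 1 and HFD 2 against 75 and 82 UMIs in CTRL 1 and CTRL 2 (log2 difference 1.61 ± 0.29 (SE), edgeR adjusted p = 0.446), lay almost wholly in the mixed clusters. Plin2, the lipid droplet coat protein, had 60.5 and 43.7 CPM in the HFD libraries against 33.3 and 34.4 CPM in the CTRL libraries, and Apod, an apolipoprotein and a leading gene of members, 4863 and 3444 CPM in the HFD libraries against 1112 and 4059.7 CPM in the CTRL libraries. Of 18 genes of cholesterol and fatty acid synthesis 9 were positive (median -0.05, and 0.08 in the unmixed clusters), the sterol exporter Abca1 being higher at a log2 difference of 0.53 and the synthesis genes Idi1 and Cyp51 lower at -1.27 and -0.95. Glucocorticoid targets had 11 of 16 positive (median 0.21, 0.22 in the unmixed clusters and 0.01 without CTRL 1), with log2 differences of 0.94 for Tsc22d3, 0.89 for Ddit4, 0.67 for the steroid-activating enzyme Hsd11b1 and -0.44 for the metallothionein Mt1. Heat shock genes (8 of 13 positive, Hsp90ab1 at a log2 difference of 0.07), antioxidant genes (6 of 20, Cygb at 0.59 and Txnrd1 at -0.63), the unfolded protein response (8 of 17) and receptors for diet-related hormones (9 of 13) had median log2 differences of 0.04, -0.06, -0.01 and 0.10, in that order. These 4 medians in the unmixed clusters were 0.20, -0.02, 0.17 and -0.11.

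**Figure D4:**
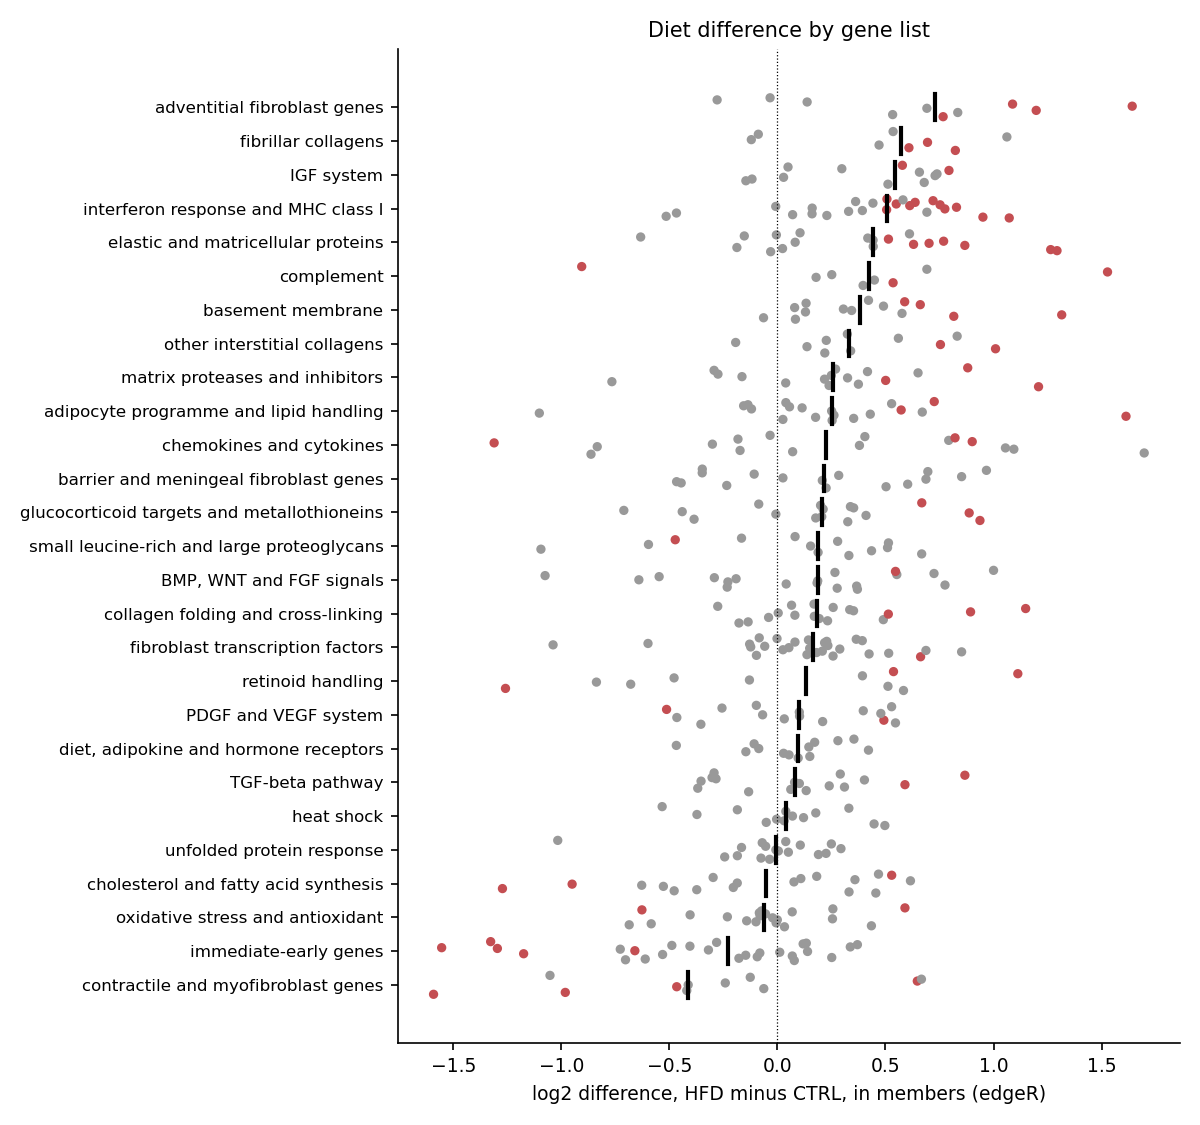
Log2 difference (HFD minus CTRL, edgeR) of each tested gene in members, by gene list, with the list median as a black bar and genes of unadjusted p under 0.05 in red. The interferon and MHC class I list has a median of 0.51 with 11 red points, all to the right, and the contractile list has a median of -0.41. No point passed adjustment over all tested genes.

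The remaining lists were small or carried transcripts of other cells. Of 9 other interstitial collagen genes outside the rule 8 were positive (median 0.32), and in the unmixed clusters 5 of 9 (median 0.08). Of 16 barrier and meningeal fibroblast genes 10 were positive (median 0.22), and in the unmixed clusters 6 of 14 (median -0.06). Only 4 of 15 proliferation genes were tested, with 1 positive. Of 7 hormone transcripts 2 were positive (median -0.36), and in the unmixed clusters 0 of 6 (median -0.56). Their levels over all members were ones that free RNA can reach for 5 of 7 genes. All 7 were also at least 2 times the level of other members in cluster 7. The parts of free RNA and of hormone cells in these values were not tested. Of the 10061 tested genes 153 had such low levels relative to their richest class that RNA from outside the cell could supply them, and 21 of these had an unadjusted p under 0.05.

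The diet difference of members was then set against that of all other kept barcodes of the same libraries. In this fit 42 genes (0.237% of 17718) had a larger and 90 (0.508%) a smaller difference in members. The 5 with the smallest p were Hbb-bs, Hba-a1, Hba-a2, Hbb-bt and Elobl, whose UMIs lay largely in single members. Elobl had no UMI in HFD members and 347 and 6 UMIs in CTRL 1 and CTRL 2, of which 282 lay in 1 member, and was at least 139-fold lower in HFD members against the floor of 3 UMIs. DESeq2 called 5 higher and 4 lower, without the shared low-UMI barcodes edgeR called 37 and 75, and with every barcode given 1000 UMIs it called 4 and 1.

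Of the 132 calls, 6 genes described above are given here, picked after their values were seen. By list, the calls took in 5 of the 7 hormone transcripts tested in members, 4 of 26 immediate-early genes and 3 of 16 chemokine and cytokine genes. Every other list held at most 2. Over all 17718 genes of this fit, 0.237% had a larger and 0.508% a smaller difference in members. DESeq2 called Aldh1a2, Ccl4 and Esm1, also described above, among others. Beside Col15a1, Fbln1 had a larger difference in members, by a log2 difference of differences of 1.00 ± 0.22 (SE), edgeR adjusted p = 0.00200, AW112010 by 1.14 ± 0.29 (SE), edgeR adjusted p = 0.0152 and Ly6a by 0.81 ± 0.20 (SE), edgeR adjusted p = 0.0147. For Acta2 the value was -1.22 ± 0.33 (SE), edgeR adjusted p = 0.0313, and for Tagln -0.83 ± 0.20 (SE), edgeR adjusted p = 0.00829. None of these 6 genes was called by DESeq2 or with every barcode given 1000 UMIs, and each lost its edgeR call without at least 1 library. Without CTRL 1, Col15a1, Fbln1, AW112010 and Tagln were no longer called (edgeR adjusted p = 0.0503, 0.606, 0.223 and 0.181). Without CTRL 2, Ly6a and Acta2 were not (edgeR adjusted p = 0.789 and 0.0684). Without HFD 1, Ly6a, Fbln1 and AW112010 were not (edgeR adjusted p = 0.39, 0.794 and 0.209), and without HFD 2, Ly6a, AW112010, Acta2 and Tagln were not (edgeR adjusted p = 0.122, 0.242, 1 and 1). Without HFD 2 the Tagln value was 0.16, and with at least 3 rule genes the Acta2 value was 0.95. The fit treats the members and the rest of a library as a pair, so its precision comes from 4 such pairs.

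Against endothelial barcodes 2 genes had a diet difference that differed in members. There were 1355 endothelial barcodes, and 0 genes (0%) had a larger and 2 of 12728 (0.0157%) a smaller diet difference in members, with 462 genes at an unadjusted p under 0.05 and 1 call by DESeq2. The 2 genes were Bpifa1 and Sftpd, transcripts of airway-type epithelium, and 5907 of the 5911 Bpifa1 UMIs in CTRL 1 and 972 of the 976 in HFD 2 lay in 1 member each. Without the shared low-UMI barcodes no gene passed. Col15a1 differed from endothelial barcodes by a log2 difference of 1.23 (edgeR adjusted p = 0.558), a miss that does not show equal responses.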

How the data were processed

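The authors deposited raw UMI counts for 32285 genes in each barcode, without normalization, made with Cell Ranger 6.1.2, Seurat 4.3 and mm10 per the submitters' processing notes. Which annotation and strand setting they used is not given here. Library totals ran from 74758237 to 101903367 UMIs. Cell classes were rebuilt from markers, and doublets were not called. Hemoglobin copies share reads. Members, lists and comparisons were chosen with earlier results of these data known.

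Member UMIs were summed per library and tested with edgeR 4.0.16 (TMM, filterByExpr, quasi-likelihood; DESeq2 1.42.0 as an alternative, R 4.3.3), diet as the term, adjusted p under 0.05. Against other barcodes the model held library, class and class by diet. Endothelial barcodes were non-members with under 10% hormone UMIs that carried at least 3 endothelial markers. Clusters used 2000 variable genes, 15 components, 15 neighbours and Leiden resolution 1 (leidenalg 0.10.2, scikit-learn 1.9.0, Python 3.11.15). The fits were tested on simulated counts. Alternatives covered the filters, rule limits, scaling, thinning and each library left out, and 2 of them (shared barcodes, 1000 UMIs per barcode after the rule) were chosen after seeing the data. Intervals are exact binomial. Coordinates of genes come from GENCODE vM21.

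The text names the 10 genes of smallest p, highest-level genes of each list (up to 4), up to 5 called genes per comparison, and list genes with an unadjusted p under 0.05, the last chosen after their values were seen, as were Isg15 and the unmixed clusters. The comparison with all other barcodes also gives Col15a1, Ly6a, Fbln1, AW112010, Acta2 and Tagln, chosen in the same way. Some genes that this rule names are not reported here.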

Additional observations from a re-analysis of the deposited data

Results flagged for a closer look

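The following genes had a diet difference that the test itself found to differ between members and other barcodes. Against all other kept barcodes, the log2 difference of differences was 3.31 for Hbb-bs, 4.14 for Hba-a1, 4.51 for Hba-a2, 3.82 for Hbb-bt and -13.6 for Elobl. Most UMIs of Hbb-bs and Elobl lay in 1 member of 1 library, and the Elobl value depends on the prior count, since HFD members had no UMI. Of the other called genes, 6 were picked after their values were seen, and Acta2 among them came from few members. The value was 1.18 for Col15a1, 0.81 for Ly6a, 1.00 for Fbln1 and 1.14 for AW112010, higher in HFD members, and -1.22 for Acta2 and -0.83 for Tagln. Each of these 6 calls was lost without at least 1 library. For Col15a1 and Fbln1 both HFD libraries stood above both CTRL libraries in members and in the unmixed clusters, and for Ly6a in the unmixed clusters. Against endothelial barcodes the value was -10.8 for Bpifa1 and -9.08 for Sftpd, each with at least 103 UMIs of CTRL 1 in members and almost all of them in 1 member.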

How the results depend on the processing

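Leaving out each library in turn, where the single remaining library is taken to have the spread of the other diet, gave a difference in share of -0.375 to 1.23 percentage points (negative without HFD 2), 0 to 176 diet calls, 65 to 330 calls against all other barcodes and 0 to 139 calls against endothelial barcodes. The log2 differences that changed sign over these 4 fits ran, lowest to highest, Cald1 -0.36 to 0.17, Col4a1 -0.41 to 0.46, Col5a2 -0.48 to 0.30, Fos -0.48 to 0.75, Hsp90ab1 -0.050 to 0.18, Igfbp7 -0.22 to 0.39, Isg15 -0.37 to 1.06, Junb -0.50 to 0.49, Lama2 -0.020 to 0.30, Ltbp4 -0.18 to 0.28, Mt1 -1.15 to 0.053, Tagln against all other barcodes -1.67 to 0.16 and Timp3 -0.12 to 0.67. With at least 3 rule genes there were 213 calls against all other barcodes and 4 calls against endothelial barcodes, and the log2 values that changed sign were Acta2 0.10 and Acta2 against all other barcodes 0.95. With at least 5 rule genes there were 2 diet calls and 4 calls against endothelial barcodes. Without members that carried 2 or more markers of another class there were 2 diet calls, 29 calls against all other barcodes and 0 calls against endothelial barcodes, and the log2 values that changed sign were Col4a1 -0.38, Col5a2 0.20, Igfbp7 -0.28, Lama2 -0.14 and Elobl against all other barcodes 1.08. With barcodes thinned to 1000 UMIs before the rule there were 0 calls against all other barcodes and 0 calls against endothelial barcodes, and the log2 values that changed sign were Apod -0.017, Atf3 0.94, Bst2 -0.72, Col4a1 -0.37, Col6a1 -0.036, Cxcl12 -0.35, Igfbp7 -0.31, Junb 0.054, Lama2 -0.56, Nid1 -0.17, Sparcl1 -0.35, Timp3 -0.049, Hbb-bs against all other barcodes -0.20 and Fbln1 against all other barcodes -0.48. With every barcode given 1000 UMIs after the rule there were 5 calls against all other barcodes, and the log2 values that changed sign were Bst2 -0.071, Col4a1 -0.27, Cxcl12 -0.086, Igfbp7 -0.23, Lama2 -0.25, Loxl1 -0.34, Rarb -0.21 and Sparcl1 -0.030. With no low-count filter there were 157 diet calls and 136 calls against endothelial barcodes. With DESeq2 there were 7 diet calls, 9 calls against all other barcodes and 1 call against endothelial barcodes. Without the shared low-UMI barcodes there were 0 calls against endothelial barcodes. The cause of these changes was not tested. Nothing in the labels pairs libraries of the same number, whose deviations from the diet means correlated at r = -0.06 over 10061 genes. A fit with the replicate block gave 6 diet calls (the hemoglobin genes, Ccl4 and Fabp4). The block left the difference in share at 0.427 percentage points. Its exact p by sign flips was 0.5, the smallest that 2 pairs of libraries can give. Of 103 named genes, 81 kept 1 sign under every alternative run. With 2 libraries a diet and 55 members in CTRL 1, small differences were not detectable at this depth.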

Other observations

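Several genes of the lists above split the libraries by number rather than by diet. Ptgds, prostaglandin D synthase of meningeal fibroblasts, had 72.9 and 2887 CPM in HFD 1 and HFD 2, against 26.6 and 4045 CPM in CTRL 1 and CTRL 2. In HFD 2 and CTRL 2, 2414 of 5882 and 3734 of 5528 Ptgds UMIs lay in 1 member each. Sfrp4 had 209 and 54 CPM in HFD 1 and HFD 2, against 225 and 66.6 CPM in CTRL 1 and CTRL 2. Both libraries numbered 1 were thus high for Sfrp4, and both numbered 2 were high for Ptgds, Fos and Ccl2.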
